A study of Mus musculus with 5 samples.

Results

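The genes of the AP-1 and BATF family were examined for peaks of Runx3 and of the histone mark H3K4me1 in natural killer cells (NKC) cultured with IL-2. The family was taken as 10 genes, Fos, Fosb, Fosl1, Fosl2, Jun, Junb, Jund, Batf, Batf3 and Atf3, of the 22350 protein-coding genes of the GENCODE M1 annotation on the 19 autosomes and chromosome X. Every Runx3 or H3K4me1 peak that overlapped one of these genes, or the 20 kb to either side, by at least 1 bp was counted, which gave 22 of the 11676 Runx3 peaks and 62 of the 34204 H3K4me1 peaks. The gene with its flanks is called its window. The windows were 41807 to 62419 bp long and did not overlap each other.

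The cells were splenic NKC of ICR mice, obtained by negative selection and kept for 7 days with 1000 units/ml of human recombinant IL-2, after which all were NKp46+ by the labels. Runx3 was immunoprecipitated in 2 libraries with a polyclonal antibody made by the authors, H3K4me1 in 1 library with a monoclonal antibody, and non-immune rabbit serum (NIS) in 2 libraries as control. The 5 libraries share the culture with IL-2, so no value here compares activated with resting cells. Reads of both Runx3 libraries were joined before peaks were called against NIS, and the lists give positions only. Peak height, depth and the spread between libraries could not be measured from them, every count below is without replicate error, and no count was tested. Runx3 peaks were found in the windows of all 8 genes of a list of NKC markers (among them Ncr1, Prf1 and Eomes), of 6 of 8 T cell markers (2 each at Cd3e, Cd3d and Cd3g, 4 at Cd5, none at Cd8a and Cd8b1) and of 2 of 4 B cell markers, against 41.1% of all protein-coding genes, so these counts do not tell NKC from T cells. The windows of Cd3e, Cd3d and Cd3g overlap each other, as do those of Cd8a and Cd8b1. The 8 T cell markers are therefore not 8 separate loci, and the same peak can be counted at more than 1 gene. A peak is not a measure of expression.

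AP-1 is a family of dimers of basic leucine zipper proteins. A Fos protein (Fos, Fosb, Fosl1, Fosl2) pairs with a Jun protein (Jun, Junb, Jund), and the pair binds the sequence TGACTCA, which reads TGAGTCA on the other strand. Batf and Batf3 are short members that pair with Jun proteins and bind DNA together with Irf4 or Irf8 in lymphocytes and dendritic cells, and Atf3 is a stress-induced relative that also binds the related CRE sequence. Many of these genes are switched on within minutes of a stimulus. Runx3 binds the RUNX motif, searched here as the sequence TGTGGT, the sequence TGTGGC, the sequence TGCGGT or the sequence TGCGGC, and H3K4me1 is a histone mark found at enhancers.

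Sequences from 4 peaks carry a RUNX and an AP-1 motif up to 50 bp apart inside a Runx3 peak of the family. They are shown because AP-1 is a proposed partner of Runx3 and these peaks lie at the genes that encode AP-1. They read 5′ to 3′ on the plus strand of the reference genome mm9, and capitals mark the RUNX and AP-1 motifs. A RUNX motif on the minus strand is seen there as its reverse complement, with CCACA or CCGCA at its end.
Junb, chr8:87505092-87505257: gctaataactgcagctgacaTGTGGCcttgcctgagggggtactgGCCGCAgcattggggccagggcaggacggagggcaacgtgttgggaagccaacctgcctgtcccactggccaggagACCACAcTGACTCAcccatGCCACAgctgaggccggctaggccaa
Jund, chr8:73239214-73239305: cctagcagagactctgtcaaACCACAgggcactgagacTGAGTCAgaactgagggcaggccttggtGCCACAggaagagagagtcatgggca
Fosb, chr7:19902073-19902188: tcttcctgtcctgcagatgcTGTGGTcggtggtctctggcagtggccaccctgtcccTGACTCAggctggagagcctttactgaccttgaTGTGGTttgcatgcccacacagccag
Batf3, chr1:192948185-192948272: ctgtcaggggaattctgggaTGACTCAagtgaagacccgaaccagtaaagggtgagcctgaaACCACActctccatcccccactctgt
At Junb the motifs are 1 bp apart and a further RUNX motif follows on the other side of the AP-1 motif. The Jund, Fosb and Batf3 stretches lie outside the transcribed part of those genes.

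Runx3 peaks were present at 9 of the 10 genes, against 41.1% of all protein-coding genes, and Fos was the gene without one. At least 2 Runx3 peaks were present at 7 of the 10, against 18.1% of all genes. Both kinds of peak were present at 8 of the 10, against 33.8% of all genes. Batf3 had 5 Runx3 peaks, Jund 4 and Atf3 3, followed by Fosb, Fosl1, Jun and Junb with 2 each and Fosl2 and Batf with 1 each. At least 4 were found at 3.23% of all genes and at least 5 at 1.54%. The median was 2, compared with 0 over all protein-coding genes. H3K4me1 peaks were present at 9 of the 10, against 51.1% of all genes, and here Jun was the gene without one. Batf3 had 13 H3K4me1 peaks, Fosb 10, Junb and Jund 9 each, Fos and Atf3 5 each, Fosl1 and Batf 4 each and Fosl2 3, with a median of 5 compared with 1 over all genes. At least 13 were found at 2.58% of all genes. Thus Batf3 led in both lists when counted by window, and Fos and Jun, the founding pair of AP-1, each lacked a different kind of peak.

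**Figure D1:**
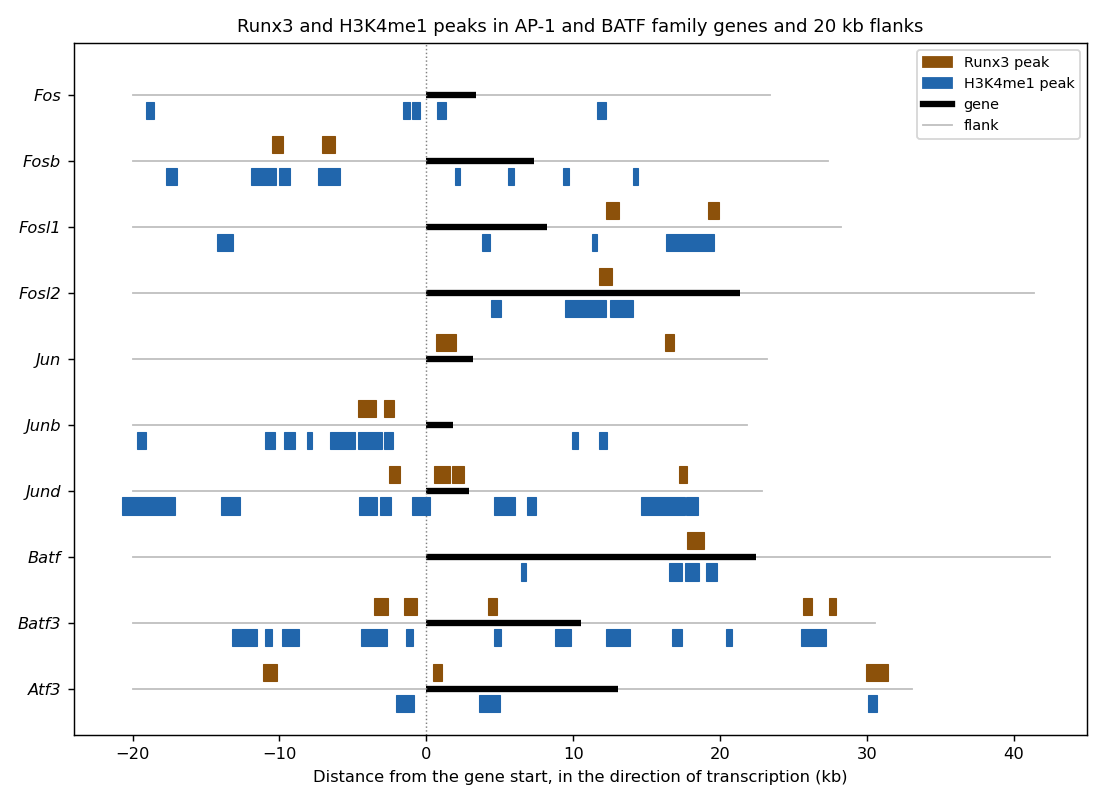
Runx3 peaks (brown) and H3K4me1 peaks (blue) in the window of each gene, by distance in kb from the gene start in the direction of transcription, with the gene as a black bar and the 20 kb flanks as a grey line. Fos has 5 H3K4me1 peaks and no Runx3 peak, Jun has 2 Runx3 peaks and no H3K4me1 peak, and Batf3 has the most of both.

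Window length bears on these counts, since a longer gene can hold more peaks. Among the 13289 protein-coding genes with windows no longer than the longest of the family (62419 bp), 35.2% had a Runx3 peak and 13.9% had at least 2, and 46.6% had an H3K4me1 peak. Of these genes, 0.602% had as many Runx3 peaks as Batf3 or more, 1.55% as many as Jund and 4.49% as many as Atf3. For H3K4me1, 0.70% had as many peaks as Batf3 or more, 2.16% as many as Fosb and 3.18% as many as Junb and Jund. With the 20 kb to either side of the gene start in place of the window, so that all genes have the same length, 9 of the 10 genes had a Runx3 peak (31.5% of all genes), 7 had at least 2 (10.1%) and 9 had an H3K4me1 peak (42.1%). In this stretch Jund had the most Runx3 peaks of the family, 4, and Batf3 had 3. Batf3 and Fosb had the most H3K4me1 peaks there, 10 each. Counted by length, the family's windows held 4.45 Runx3 and 12.5 H3K4me1 peaks per 100 kb, compared with 0.685 and 2.08 per 100 kb in the windows of all protein-coding genes joined.

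**Figure D2:**
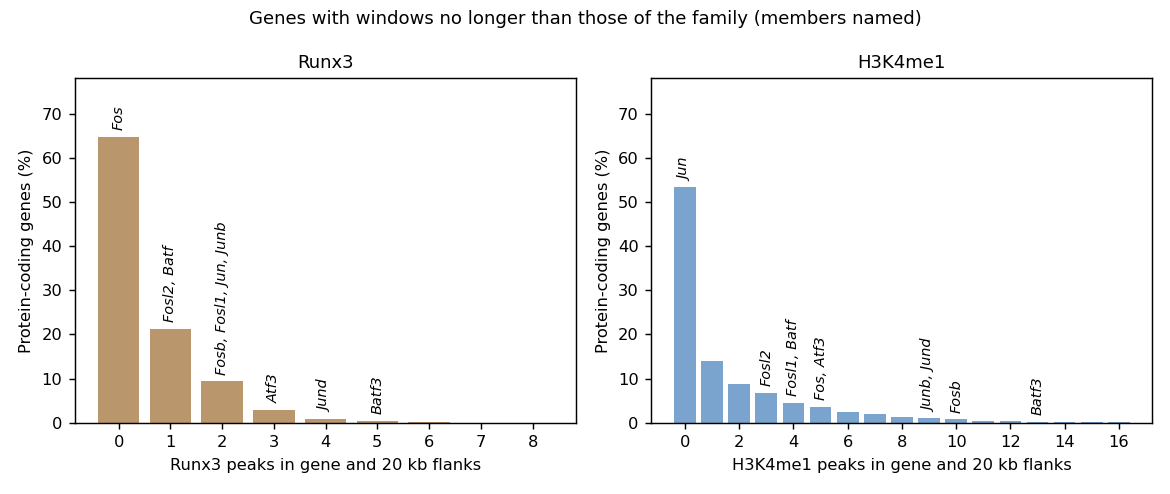
Share (%) of the 13289 protein-coding genes with windows of up to 62419 bp by the number of Runx3 peaks (left) and H3K4me1 peaks (right) in the window, with each family gene named above the bar of its own count. Counted separately, 64.8% of these genes have no Runx3 peak and 53.4% have no H3K4me1 peak, whereas Jund and Batf3 for Runx3, and Fosb and Batf3 for H3K4me1, stand where few genes are.

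Of the Fos genes, Fos itself (chr12:86814840-86818223), the immediate early gene that gave the family its name, had no Runx3 peak in its window but 5 H3K4me1 peaks of 462 to 605 bp. Such a combination, at least 5 H3K4me1 peaks and no Runx3 peak, was found at 1.87% of all genes. One H3K4me1 peak ended 414 bp before the start of Fos and the next began 736 bp after it, so that the start lay in an unmarked stretch of 1149 bp. The Runx3 peak nearest to the start was outside the window, 26693 bp upstream (chr12:86787823-86788471), held 3 RUNX motifs and overlapped an H3K4me1 peak. It was therefore counted with flanks of 50 kb but not with 20 kb.

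Fosb (chr7:19888070-19895394), a second early response member, had both of its Runx3 peaks upstream, centred 6657 bp and 10131 bp before the start. The nearer (chr7:19901639-19902463) held 7 RUNX and 2 AP-1 motifs and was covered by H3K4me1 peaks over 98.2% of its length. The farther (chr7:19905147-19905904) had its centre in the gap between adjacent H3K4me1 peaks and overlapped both of them. It held 2 RUNX motifs within 100 bp of its centre and no AP-1 motif, in sequence with 49 CpG dinucleotides, as shown here for the stretch that holds both RUNX motifs.
Fosb, farther peak, chr7:19905432-19905548: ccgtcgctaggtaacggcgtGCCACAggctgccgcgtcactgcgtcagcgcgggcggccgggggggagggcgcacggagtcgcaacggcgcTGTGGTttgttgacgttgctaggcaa

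Fosl1 (chr19:5447703-5455945), which encodes a Fos protein without a transactivation domain, had 2 Runx3 peaks in its window, both downstream of the gene and both nearest to the start of another gene. The first (chr19:5459928-5460825) was centred 261 bp from the start of Fibp and overlapped no H3K4me1 peak. The second (chr19:5466849-5467639) lay in an intron of Ctsw, which encodes cathepsin W of cytotoxic lymphocytes, 1254 bp from its start, and overlapped an H3K4me1 peak of 3296 bp. Neither held an AP-1 motif. Fosl2 (chr5:32438845-32460204), its closest relative, had a single Runx3 peak in an intron, 12218 bp from the start (chr5:32450626-32451501). This peak bridged 2 wide H3K4me1 peaks of 2831 and 1590 bp and held 7 RUNX motifs, of which 5 were TGTGGC and 2 TGTGGT.

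The Jun genes are short, and 2 of them had Runx3 peaks over their own coding sequence. At Jun (chr4:94715725-94718913) a peak of 1356 bp (chr4:94716882-94718237), wider than 97.5% of all Runx3 peaks, was centred in the coding exon 1354 bp from the gene start. It held 6 RUNX motifs, 5 of them TGCGGC and 1 TGCGGT, and none with TGTGG. At Jund (chr8:73221638-73224515) a peak centred in the coding exon (chr8:73223353-73224229) held 5 RUNX motifs, 3 TGCGGC and 2 TGCGGT, and again none with TGTGG. The TGTGG forms were found in the other 20 of the 22 peaks of the family and in 89.0% of all Runx3 peaks. Both coding peaks were rich in GC (62.3% at Jun and 70.5% at Jund, with 114 and 101 CpG dinucleotides) and neither overlapped an H3K4me1 peak. TGCGG forms were found in 7 of the 22 peaks of the family and in 33.6% of all Runx3 peaks. The stretches around the RUNX motifs nearest to the centres of the coding peaks are shown for this shared form. These motifs lay 198 bp from the centre at Jun and 4 bp at Jund. On the minus strand TGCGG reads CCGCA.
Jun, chr4:94717245-94717383: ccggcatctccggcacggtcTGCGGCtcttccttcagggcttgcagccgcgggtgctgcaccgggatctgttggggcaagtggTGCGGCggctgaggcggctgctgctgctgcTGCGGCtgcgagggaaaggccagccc
Jund, coding peak, chr8:73223751-73223817: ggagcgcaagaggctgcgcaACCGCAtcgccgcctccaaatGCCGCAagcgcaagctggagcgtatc
The genes Jun, Junb and Jund share no identical 40-mer with each other, 40 bp being the read length by the labels. Stretches with mismatches and the rest of the genome were not compared, so the mapping of reads was not tested.

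The second Runx3 peak of Jun lay downstream of the gene, 16549 bp from the start (chr4:94702069-94702660). It had 1 RUNX and 1 AP-1 motif 60 bp apart and the lowest GC content of the family's peaks, 43.6%. No H3K4me1 peak lay in the window of Jun, and the start of the gene was in an unmarked stretch of 79103 bp. Runx3 without H3K4me1 in the window was found at 7.29% of all genes.

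At Junb (chr8:87500811-87502617), an early response gene that is also a regulator of T helper cell cytokine genes, both Runx3 peaks lay upstream inside H3K4me1 peaks. The nearer was centred 2555 bp before the start (chr8:87504822-87505522), with 93.9% of its length marked, and held 4 RUNX motifs and the AP-1 motif shown above. The farther, 4037 bp before the start (chr8:87506049-87507260), was 1212 bp wide, was marked over its whole length and held 4 RUNX motifs and 1 AP-1 motif, 83 bp apart at the closest. Junb and Fosb thus both had a pair of upstream Runx3 peaks that overlapped H3K4me1 and none in the gene, though the farther Fosb peak was centred in an unmarked gap. Batf3 also had a pair of upstream Runx3 peaks that overlapped H3K4me1, besides others in and beyond the gene.

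Jund, the member of the Jun family that is broadly expressed in resting cells, had 4 Runx3 peaks. Besides the coding peak, one lay upstream by 2186 bp (chr8:73219087-73219818) with 3 RUNX motifs, one was centred in an annotated UTR of the gene (chr8:73222137-73223254), 162 bp from the start of one of its transcripts, and one lay 17475 bp downstream of the gene start (chr8:73238825-73239401), nearest to the start of Pde4c. The UTR peak held 1 RUNX motif and the CRE sequence TGACGTCA, found in none of the other peaks of the family and in 2.17% of all Runx3 peaks. The downstream peak bridged 2 H3K4me1 peaks and held the RUNX and AP-1 motifs shown above, 12 bp apart. The coding peak was centred 188 bp from the annotated start of Gm11175. Of the 10 gene starts, taken as the outermost start of each gene, only that of Jund lay inside an H3K4me1 peak, against 2.72% of all genes. The other of the 2 annotated starts of Jund, 162 bp from the centre of the UTR peak, lay in none. H3K4me1 peaks covered 30.7% of the window of Jund, the highest share of the family.

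Batf (chr12:87027619-87050037), which encodes a factor needed for several effector T cell lineages, had 1 Runx3 peak, in an intron 18312 bp from the start (chr12:87045353-87046509). At 1157 bp it was wider than 93.7% of all Runx3 peaks, was marked by H3K4me1 over 73.0% of its length and held 3 RUNX motifs, one of them 1 bp from the centre, and no AP-1 motif. Batf3 (chr1:192922293-192932822), best known from cross-presenting dendritic cells, had 5 Runx3 peaks, all nearest to its own start and 4 of them overlapping H3K4me1. They were centred 3096 bp and 1072 bp upstream of the start, in an intron at 4524 bp, and downstream of the gene at 25952 and 27640 bp from the start. AP-1 motifs were found in the intronic peak (chr1:192926520-192927114, 2 motifs) and in the first of the downstream peaks (chr1:192947958-192948532, 1 motif, 35 bp from a RUNX motif). The last peak (chr1:192949678-192950189) was the narrowest of the family at 512 bp and overlapped no H3K4me1 peak. The RUNX motifs nearest to the centres at Batf and at the closest upstream peaks of Batf3 were all TGTGG motifs, as these stretches show.
Batf, intron, chr12:87045907-87045952: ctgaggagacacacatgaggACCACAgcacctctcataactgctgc
Batf3, 3096 bp upstream, chr1:192919147-192919252: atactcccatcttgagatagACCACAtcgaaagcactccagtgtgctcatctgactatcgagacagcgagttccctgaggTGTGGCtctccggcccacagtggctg
Batf3, 1072 bp upstream, chr1:192921353-192921398: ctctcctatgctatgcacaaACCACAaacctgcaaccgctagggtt

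Atf3 (chr1:192994175-193007219), the neighbour of Batf3 on chromosome 1, had 3 Runx3 peaks. The widest of the family, 1536 bp and wider than 99.0% of all Runx3 peaks (chr1:192975790-192977325), lay downstream of the gene, 30662 bp from the gene start and nearest to the start of Fam71a, and held 9 RUNX motifs, 6 of them TGTGGT. It was the only Runx3 peak of Atf3 that overlapped H3K4me1. The others were in an intron 754 bp from the start (chr1:193006171-193006760) and 10626 bp upstream (chr1:193017380-193018310), and each held 1 AP-1 motif, 288 and 164 bp from the nearest RUNX motif. The centre of the widest peak is shown since 3 RUNX motifs follow each other there.
Atf3, downstream, chr1:192976420-192976580: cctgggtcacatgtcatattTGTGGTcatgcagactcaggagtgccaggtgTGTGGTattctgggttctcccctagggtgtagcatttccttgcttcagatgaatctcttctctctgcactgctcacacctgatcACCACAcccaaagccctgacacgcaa

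By position, 8 of the 22 Runx3 peaks of the family were centred upstream of the gene, 7 downstream, 4 in introns, 2 in coding exons and 1 in a UTR. In 17 of the 22 the nearest start of a protein-coding gene was that of the family gene itself. The other 5 were nearest to Fibp, Ctsw, Gm11175, Pde4c and Fam71a. The peaks were taken for lying in the windows of these genes, which by itself favours their own starts. Neither the split by position nor the nearest start was counted for the windows of all genes, so these counts have no comparison. A Runx3 peak centred within 1 kb of an annotated start of the gene itself was found at 2 of the 10 genes, Jund and Atf3, against 13.3% of all genes.

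All 22 Runx3 peaks of the family held a RUNX motif, against 96% of all Runx3 peaks, and an ETS motif (the sequence AGGAAA, the sequence AGGAAG, the sequence CGGAAA or the sequence CGGAAG) was found in 20 of 22, against 91.4%. An AP-1 motif was found in 9 of the 22 peaks, a share of 40.9% (95% Wilson interval 23.3 to 61.3), against 26.2% of all Runx3 peaks, which lies inside the interval. Among Runx3 peaks at least as wide as the median the order turned, with 3 of 15 peaks of the family (20%) against 28.5% of all such peaks. These 9 peaks lay at Batf3, Junb and Atf3 (2 each) and at Fosb, Jun and Jund (1 each), and none at Fosl1, Fosl2 or Batf. A RUNX and an AP-1 motif up to 50 bp apart were found in 4 of 22 (18.2%, 7.31 to 38.5), against 12.8%. In the central 200 bp of the peak, RUNX motifs were found in 16 of 22 (76.9% of all Runx3 peaks) and AP-1 motifs in 4 of 22 (12.7%). Motifs were searched on both strands, and a match is a description of the letters only. A RUNX and an AP-1 motif can share 1 base at most, and the closest pair in the peaks of the family, at Junb, was 1 bp apart.

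**Figure D3:**
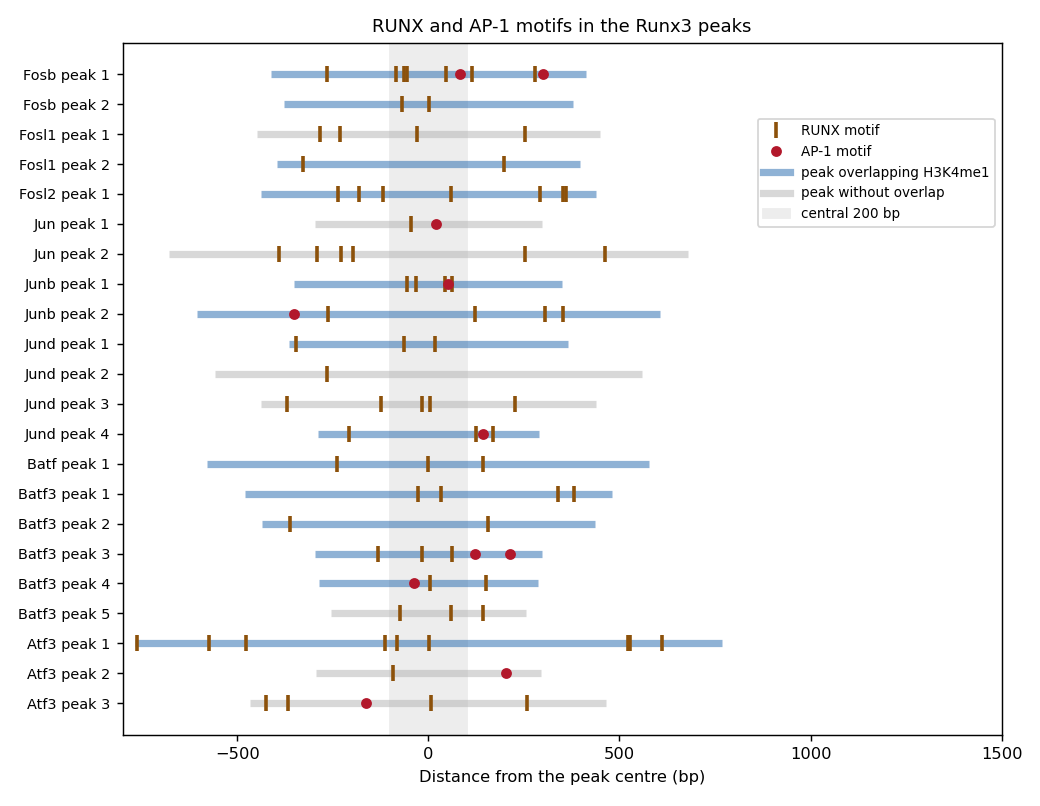
Positions of RUNX motifs (brown ticks) and AP-1 motifs (red points) in the 22 Runx3 peaks of the family, by distance in bp from the peak centre, with the peaks of a gene numbered along the chromosome and bars in blue where the peak overlaps H3K4me1. Every peak has a RUNX motif, 9 have an AP-1 motif, and the central 200 bp (shaded) hold a RUNX motif in 16.

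H3K4me1 peaks overlapped 14 of the 22 Runx3 peaks, a share of 63.6% (95% Wilson interval 43.0 to 80.3), against 48.4% of all Runx3 peaks, again inside the interval. The centre of the Runx3 peak lay in an H3K4me1 peak in 11 of 22 (50%, 30.7 to 69.3), against 28.2%, which is outside that interval. Overlap with at least 2 H3K4me1 peaks was found in 5 (22.7%, 10.1 to 43.4), against 11.4%. Among the 10 genes, 8 had a Runx3 peak that overlapped H3K4me1, and the exceptions were Fos and Jun. The share of all genes with such an overlap was not counted, so this count of genes has no comparison. Viewed from the other side, 19 of the 62 H3K4me1 peaks of the family (30.6%) overlapped a Runx3 peak, against 19.9% of all H3K4me1 peaks. The 8 Runx3 peaks without H3K4me1 had a median GC content of 61.4% (43.6 to 70.5), and 5 of them exceeded 60%, whereas the 14 with H3K4me1 ranged from 49.6% to 57.5% and none exceeded 60%. Over all Runx3 peaks, 19.2% of those without H3K4me1 exceeded 60% and 2.88% of those with it. The family's Runx3 peaks had a median width of 848 bp, compared with 704 bp over the whole list (25th to 75th percentile 592 to 834), and a median of 3 RUNX motifs, as in the whole list.

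In the 250 bp before to 50 bp after the gene start, a RUNX motif was present at 6 of the 10 family genes (45.3% of all protein-coding genes), with 3 at Batf, 2 at Batf3 and 1 each at Fosb, Fosl1, Fosl2 and Jun. No Runx3 peak of these 6 genes was centred within 1 kb of an annotated start of the same gene, the nearest at Batf3 being 1072 bp away. Jund and Atf3, which had one, held no RUNX motif in this stretch. The stretch was searched at the gene start only. The Jund peak was centred 1057 bp from the gene start and 162 bp from another annotated start, which was not searched. AP-1 and CRE motifs were present there in 0 of the 10, against 4.42% and 2.33% of all genes, and with 10 genes a count of 0 is near these shares. Only the exact AP-1 and CRE sequences given above were searched, so variants of them were not counted.

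Fos and Batf lie on the same chromosome with a further family relative between them, Jdp2, which encodes a repressor that pairs with Jun proteins. From 40 kb before Fos to 20 kb after Batf (chr12:86774840-87070037) there were 4 Runx3 peaks and 28 H3K4me1 peaks. Downstream of Fos the first Runx3 peak was centred 151015 bp from its start, inside Jdp2. It was followed by another in Jdp2 at 155977 bp and by the intronic peak of Batf at 231091 bp. Jdp2 had 2 Runx3 peaks, both overlapping H3K4me1, and 9 H3K4me1 peaks. Its first peak (chr12:86965451-86966260) held an AP-1 motif and overlapped H3K4me1 only at its edge, by a peak that ended at position 86965573. The other was centred in the gap between the 2 H3K4me1 peaks that it overlapped. All 4 Runx3 peaks of this stretch overlapped H3K4me1, and the least distance from one of them to the start of Fos, Jdp2 or Batf was 18312 bp.

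**Figure D4:**
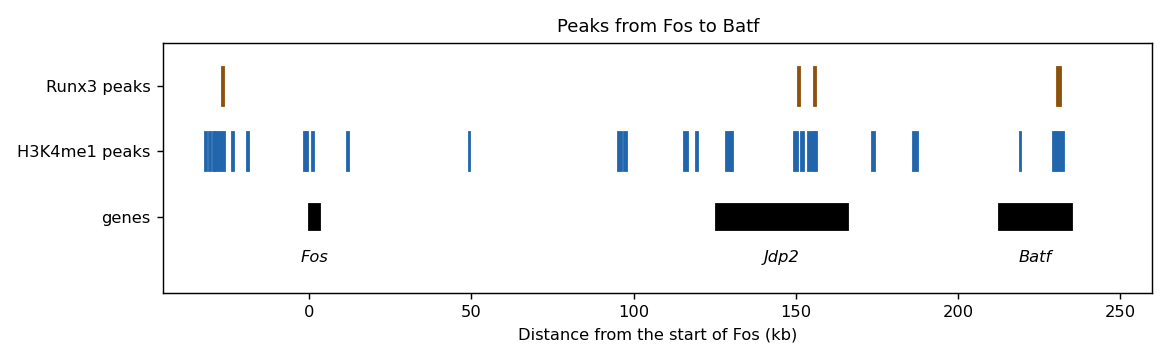
Runx3 peaks (top row), H3K4me1 peaks (middle row) and protein-coding genes (bottom row) around Fos, Jdp2 and Batf, by distance in kb from the start of Fos. The 4 Runx3 peaks lie before Fos, in Jdp2 and in Batf, each overlapping H3K4me1 at least in part, while H3K4me1 peaks at Fos itself have no Runx3 peak.

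Other basic leucine zipper genes were examined as a list of relatives and possible dimer partners, of which 35 of 36 were annotated as protein-coding (Cebpd was annotated as a pseudogene and was not counted). A Runx3 peak was found at 28 of the 35 (80%), against 41.1% of all protein-coding genes, at least 2 at 14, against 18.1%, and an H3K4me1 peak at 30, against 51.1%. With flanks of 5 kb, 15 of the relatives had a Runx3 peak, against 28.8% of all genes. The median was 1 Runx3 and 3 H3K4me1 peaks, and the windows ranged from 40390 to 387305 bp. With 20 kb to either side of the gene start, 25 of the 35 had a Runx3 peak, against 31.5% of all genes. Those with the most Runx3 peaks were Bach2, a repressor that competes with AP-1 in lymphocytes, with 7 in the longest window of the list, Maff, a small Maf protein, with 6, and Creb3 with 5. Mafk, Nfe2l2 and Nfil3, the last required for NKC development, had 4 each. Those without a Runx3 peak included Atf2, Nrl, Bach1, Cebpa, Cebpg and Hlf. Among the genes that act with the family, Irf4 had 2 Runx3 peaks, both with an AP-1 motif and 1 overlapping H3K4me1. Irf8 had 3 Runx3 peaks, all overlapping H3K4me1, among 29 H3K4me1 peaks. Fhl2, a coactivator of AP-1, had 4 Runx3 peaks, 3 of them overlapping H3K4me1, and 10 H3K4me1 peaks.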

How the data were processed

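Reads of 40 bp, per the labels, were mapped by the authors with ELAND to mm9. Peaks were called by MACS, with NIS as the control, after the reads of both Runx3 libraries had been joined. The deposited lists hold peak positions in bp, without score, p-value or signal, and other values of the libraries were not used here. Starts were counted from 0 and are given from 1. Genes, starts, exons and sequence came from GENCODE M1 and its genome, NCBIM37, the same build as mm9. The cells were of ICR mice and the sequences printed are those of the reference. Distances run from peak centre to gene start. Counting of peaks, overlaps and motifs was tested on simulated lists. The members, gene lists and alternatives were chosen with earlier results of these data known. All members are named, and of the relatives those with the most Runx3 peaks, with ties, and those without any, except for an item that is not reported here. Intervals cover counting error only, and peaks of 1 gene are not independent. Calculations used python 3.11.15, numpy 2.4.6, pandas 2.3.3, scipy 1.17.1, pysam 0.24.0, samtools 1.23.1 and matplotlib 3.10.9.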

Additional observations from a re-analysis of the deposited data

How the results depend on the processing

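No paired analysis was possible because the libraries were joined before peaks were called, and for the same reason no library could be left out. Of 54 alternative values, 38 stayed within 1.5 times the count or inside the interval of the share. Family genes with a Runx3 peak numbered 8 with flanks of 5 kb and 10 with flanks of 50 kb, against 28.8% and 55.4% of all genes (33.5% with 10 kb, 31.5% with the stretch around the gene start, 27.7% with Runx3 peaks at least as wide as the median). Flanks of 5 kb gave 13 Runx3 peaks, 32 H3K4me1 peaks and 15 relatives with a Runx3 peak, and flanks of 50 kb gave 36 Runx3 and 115 H3K4me1 peaks. H3K4me1 peaks at least as wide as the median numbered 33. The share of the family's Runx3 peaks with an AP-1 motif was 20% among those at least as wide as the median and 18.2% in the central 200 bp, where RUNX motifs were found in 72.7%. Family genes with a Runx3 peak near a start numbered 4 within 2 kb and 5 within 5 kb. The share of all genes was not counted at these distances, so these counts have no comparison.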

Other observations

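Among the relatives, Bach1, a repressor that pairs with small Maf proteins, had 7 H3K4me1 peaks and no Runx3 peak in its window, as Fos had 5 and none.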
